A study of Mus musculus with 10 samples.

Results

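The angiogenic factor genes examined here are Vegfa, Vegfb, Vegfc and Pgf of the vascular endothelial growth factor (VEGF) family, the angiopoietin genes Angpt1 and Angpt2, and the angiopoietin-like genes Angptl2 and Angptl4. They were taken by name, and they are 8 of the 36047 genes to which the deposited transcripts could be joined. All 8 passed the filter on low counts, so all are among the 13362 genes tested. They were measured by RNA sequencing in hepatic stellate cells of the mouse, which store vitamin A and lie between hepatocytes and the endothelium of the liver sinusoids. In both groups the labels describe quiescent cells from livers of male C57BL/6 mice, kept in culture for 5 h and then in starving medium for 4 h. The Areg group (5 libraries) received recombinant mouse amphiregulin at 500 ng/mL during those 4 h, and the control group (5 libraries) did not. Amphiregulin signals through the epidermal growth factor receptor. As the labels do not tie libraries to separate mice or cultures, a p-value here reflects the spread from library to library alone, and that spread may be technical.

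VEGF ligands are secreted dimers that bind receptor tyrosine kinases on endothelial cells and drive the growth, survival and permeability of vessels. Angiopoietin-1 activates the endothelial receptor TIE2, whereas angiopoietin-2 binds the same receptor and can oppose angiopoietin-1. Angiopoietin-like proteins do not bind TIE2, and ANGPTL4 is best known as an inhibitor of lipoprotein lipase. Stellate cells sit against the sinusoidal endothelium and are a known source of VEGF-A in the liver.

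The libraries held 10125184 to 20057962 estimated counts. Controls 3 and 4, the shallowest libraries, scored 51.1 and 31 on the first principal component, apart from the other 8 at -18.3 to 0.626. Results of the members that rest on these controls are given with and without them. Stellate cell markers such as Dcn, Reln and Ecm1 were abundant, with a summed level of 12220 to 12630 CPM (estimated counts scaled to library size with TMM factors) in Areg libraries and 12680 to 13280 CPM in controls (1 rose and 6 fell of 15 tested), although Gfap had at most 11 counts in any library. Markers of other liver cells were present as well. The 14 endothelial markers, led by Cdh5 and Lyve1, summed to 5724 to 5797 CPM in Areg libraries and 5671 to 6172 CPM in controls, none of them rose, and 2 fell. Among all genes tested 8.34% were called higher and 8.32% lower. The 11 hepatocyte markers found in the annotation summed to 1480 to 1864 CPM in Areg libraries and 1333 to 2149 CPM in controls. The 11 macrophage markers summed to 635 to 684 CPM in Areg libraries and 641 to 699.7 CPM in controls, and the 8 T and B cell markers to at most 1.71 CPM in Areg libraries and 2.69 CPM in controls. The 8 smooth muscle and pericyte markers summed to 368 to 396.5 CPM in Areg libraries and 324.5 to 365 CPM in controls, and the 7 cholangiocyte markers to 82.5 to 95.7 CPM in Areg libraries and 40.4 to 50.6 CPM in controls, nearly all of it Spp1, which stellate cells also express. Every library thus held endothelial RNA beside that of stellate cells. A change in the number of cells of a type cannot be told apart from a change in their RNA.

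Areg-treated cells held more Angptl4 and Angpt2 transcripts and fewer Angptl2 and Vegfb transcripts, while Vegfa, by far the most abundant of these factors, did not pass the test. Angptl4 was 1.49-fold and Angpt2 1.32-fold of the control level, and Angptl2 0.758-fold and Vegfb 0.786-fold. Of the 8 members, 2 rose, 2 fell and 4 did not pass at an adjusted p of 0.05 (edgeR quasi-likelihood test, Benjamini-Hochberg over all genes tested). Log2 fold changes are Areg over control. Among all genes tested 16.7% passed, 8.34% higher and 8.32% lower; of those called 50.04% were higher, against 37.6% on log2(TPM + 1) and 61.3% with a transcript length and GC trend removed. The median log2 fold change was -0.07 for the 8 members and -0.01 for all genes tested. Over 23 alternative settings (other scaling, filters and tools, or libraries left out) 3 to 6 members passed. The call of Vegfb was among those that changed, and those of Angptl4, Angpt2 and Angptl2 held under all 23.

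**Figure D1:**
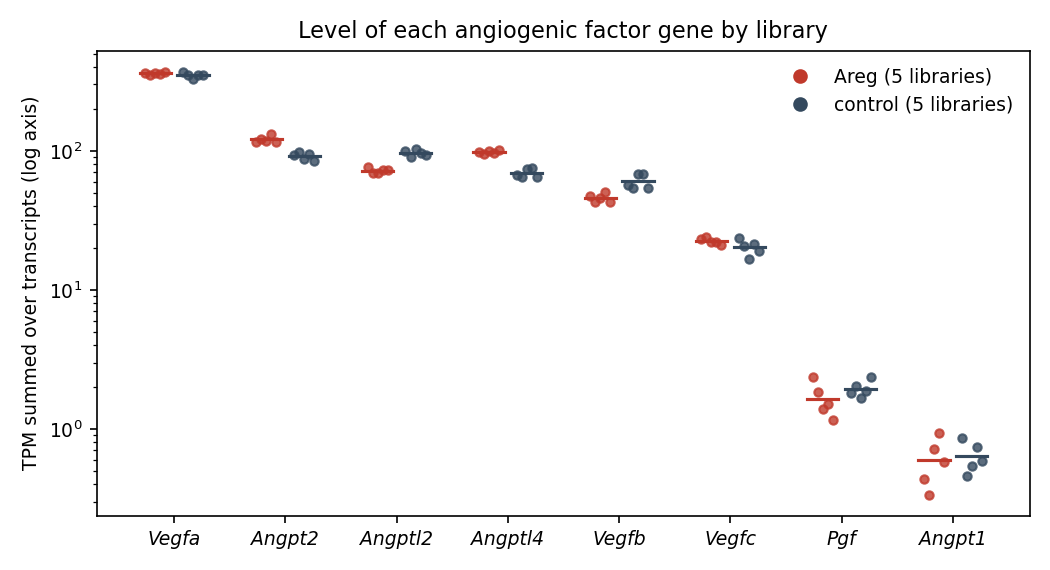
Level of each gene in TPM (read share per transcript length, scaled to one total per library; log axis), summed over its transcripts, with 5 Areg libraries to the left of 5 control libraries and a line at each mean. Vegfa lies highest in every library, at 353 to 370 TPM with Areg and 330 to 368 TPM in controls, and Pgf and Angpt1 lie lowest.

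Levels of different genes were compared per length, as TPM. Vegfa averaged 362 ± 6.47 TPM in Areg libraries and 349 ± 13.3 TPM in controls (SD, n = 5 each, as for all pairs below). Angpt2 averaged 121 ± 6.68 TPM in Areg libraries and 91.4 ± 5.63 TPM in controls. In controls its range overlapped that of Angptl2, which averaged 72.1 ± 2.73 TPM in Areg libraries and 96.5 ± 5.25 TPM in controls.

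Below them, the order of the levels depended on the group. Angptl4 averaged 98.2 ± 2.82 TPM in Areg libraries, above every Angptl2 value of that group, and 69.2 ± 5.09 TPM in controls, below every Angptl2 value there. Vegfb averaged 45.8 ± 3.18 TPM in Areg libraries and 60.2 ± 7.18 TPM in controls, where its range overlapped that of Angptl4. Vegfc followed at 22.4 ± 1.08 TPM in Areg libraries and 20.2 ± 2.57 TPM in controls, apart from Vegfb in both groups. Pgf, at 1.65 ± 0.464 TPM in Areg libraries and 1.95 ± 0.268 TPM in controls, and Angpt1, at 0.602 ± 0.237 TPM in Areg libraries and 0.637 ± 0.162 TPM in controls, were the lowest.

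**Figure D2:**
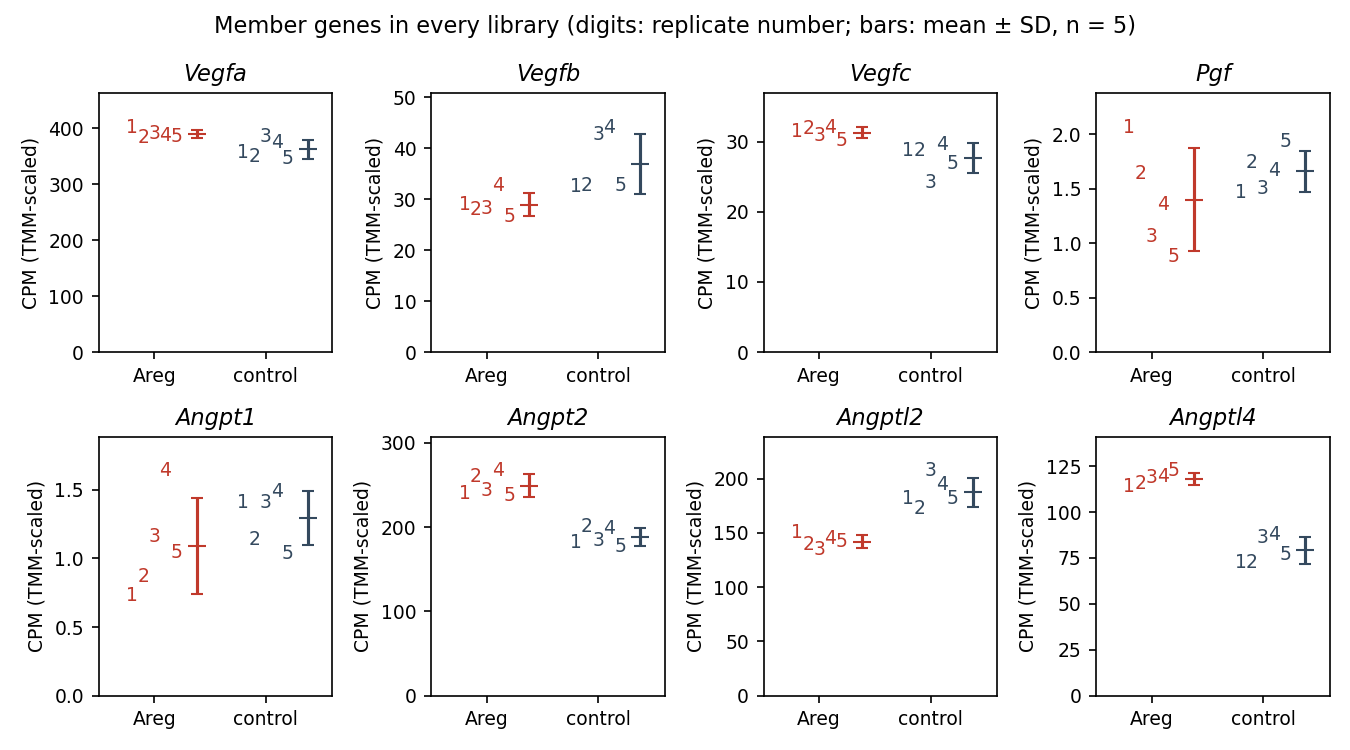
TMM-scaled CPM of each member in every library, Areg left and control right; each digit is a library's replicate number, and bars give the mean ± SD (n = 5). The groups are fully apart for Angptl4, Angpt2, Angptl2 and Vegfc, and controls 3 and 4 stand above the other controls for Vegfb.

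Vegfa, the ligand of VEGFR1 and VEGFR2 and the main driver of vessel growth in the family, lies on chromosome 17 (46016993 to 46032369, minus strand, GRCm38). It had 401, 384, 391, 387 and 384 CPM in Areg libraries 1 to 5, against 355.5, 349, 385, 373.5 and 346.5 CPM in controls 1 to 5. Control 3 lay above Areg libraries 2 and 5 and the other controls lay below all Areg libraries. The difference on the log2 scale was 0.11 (SE 0.04, edgeR adjusted p = 0.108), with an approximate 95% interval of 0.02 to 0.19. Without controls 3 and 4 it was 0.16 and passed (edgeR adjusted p = 0.00498), and without control 3 alone it was 0.13 and passed (edgeR adjusted p = 0.0338).

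Vegfa is spliced into forms that differ in whether the mRNA holds exon 6 and exon 7, which encode the basic stretches that bind heparan sulfate and, for exon 7, the coreceptor neuropilin-1. The form with exon 7 but not 6 is the mouse VEGF-A164 type, the form with neither is the freely diffusing VEGF-A120 type, and the form with both is the matrix-bound VEGF-A188 type. Both exons are coding and a multiple of 3 bases long, 72 and 132, so either can be skipped without changing the frame. They are shown here from the GENCODE M21 transcripts, 5′ to 3′ on the minus strand of GRCm38, because they define the forms compared next; exon 6 is chr17:46022277-46022348 and exon 7 is chr17:46020991-46021122.
Vegfa exon 6: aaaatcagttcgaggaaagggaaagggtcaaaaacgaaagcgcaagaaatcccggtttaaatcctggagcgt
Vegfa exon 7: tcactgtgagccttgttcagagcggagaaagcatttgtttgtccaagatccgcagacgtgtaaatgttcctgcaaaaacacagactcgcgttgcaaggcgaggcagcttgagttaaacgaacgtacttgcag

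The exon 7 form without exon 6 was the largest coding form in both groups. It held 32.1 ± 1.43% of the summed Vegfa TPM in Areg libraries and 32.6 ± 4.29% in controls, a difference of -0.53 percentage points (exact permutation p = 0.857, two-sided, adjusted p = 0.857 over the 8 form shares and ratios tested). Without controls 3 and 4 that difference was 2.15 percentage points, and as a share of coding transcripts only it was -6.05 (exact permutation, adjusted p = 0.153). The form with neither exon held 11.6 ± 1.61% in Areg libraries and 9.57 ± 1.68% in controls (exact permutation p = 0.103, adjusted p = 0.148). The form with both exons held 7.26 ± 1.09% in Areg libraries and 6.84 ± 1.3% in controls (exact permutation p = 0.595, adjusted p = 0.68). None of these 3 shares differed beyond the spread between libraries, and the differences for exon 7 alone and for both exons changed sign without control 3.

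**Figure D3:**
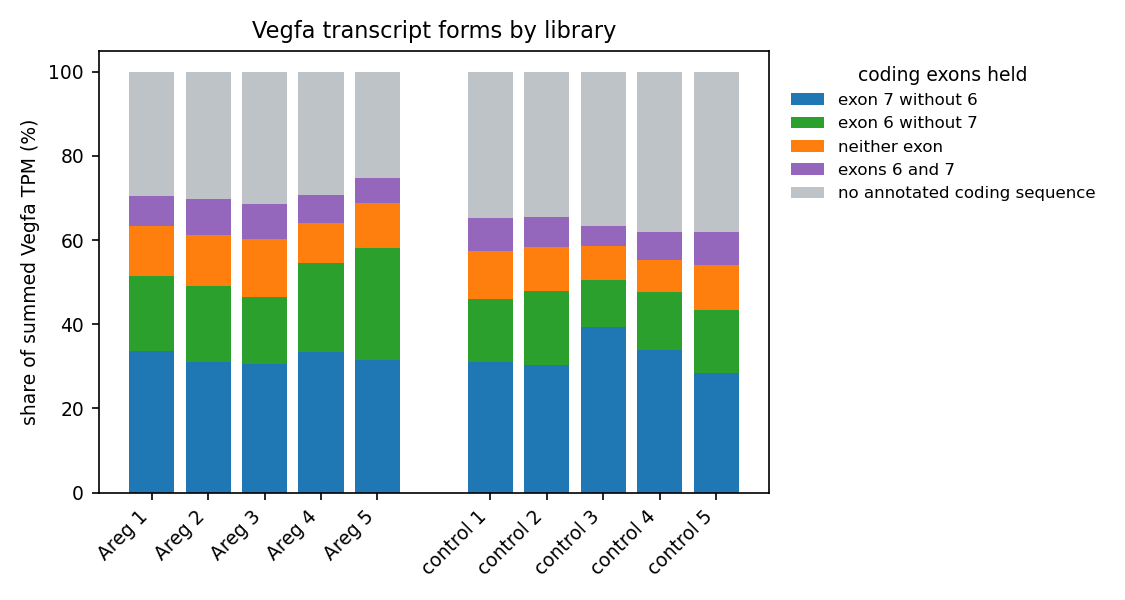
Share of the summed Vegfa TPM (%) held by each transcript form in the 5 Areg libraries (left) and the 5 control libraries (right). Transcripts without an annotated coding sequence (grey) hold 25.3 to 31.5% in Areg libraries and 34.6 to 38.1% in controls.

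The other shares of Vegfa moved. Transcripts with no annotated coding sequence, all annotated as retained introns, held 29.5, 30.3, 31.5, 29.2 and 25.3% in Areg libraries 1 to 5, against 34.9, 34.6, 36.7, 38.1 and 38% in controls 1 to 5. The groups did not overlap, and the exact permutation p of 0.00794 (adjusted p = 0.0212) is the smallest that 5 against 5 libraries allow. The difference was -7.29 percentage points of TPM and -2.24 percentage points of estimated counts, where it passed as well (exact permutation, adjusted p = 0.0212). Without controls 3 and 4 the TPM difference was -6.65 percentage points, and an exact permutation test of 5 against 3 libraries gave an adjusted p of 0.0714. The form with exon 6 but not 7 held 19.9 ± 4.18% in Areg libraries and 14.5 ± 2.3% in controls, with overlap (exact permutation p = 0.0159, adjusted p = 0.0317). That call was lost under 10 of 15 alternatives, among them shares of estimated counts, where the difference was 1.07 percentage points (exact permutation, adjusted p = 0.0762). This form is a single transcript that is annotated with 510 coding and only 3 other bases. The transcripts with reads in the remaining coding forms carry 797 to 2347 untranslated bases, so the shares also rest on how reads of shared exons were divided. Of 13 Vegfa transcripts 4 were listed at 0 in every library. None of the 9 others passed a transcript-level edgeR test, where 0.775% of 36269 transcripts did.

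Vegfb, whose product binds VEGFR1 and is linked to fatty acid uptake by endothelium more than to vessel growth, lies on chromosome 19 (6982473 to 6987651). It had 29, 27.9, 28.3, 32.7 and 26.7 CPM in Areg libraries 1 to 5, against 32.5, 32.8, 42.8, 44.2 and 32.8 CPM in controls 1 to 5. Controls 3 and 4 were the highest, and Areg library 4 lay within the range of the other 3 controls. Vegfb fell by 0.35 on the log2 scale (SE 0.09, edgeR adjusted p = 0.018). Without controls 3 and 4 it was -0.18 and did not pass (edgeR adjusted p = 0.0777), and once a fitted trend over transcript length and GC content was taken out it was -0.16 and did not pass (edgeR adjusted p = 0.098).

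Its coding transcripts differ by the first part of exon 6, which is spliced in for the soluble VEGF-B186 type and left out for the heparin-binding VEGF-B167 type. That part is 101 bases long, not a multiple of 3, and so shifts the reading frame of what follows. The annotated 5′ ends differ as well, at 6987651 for the transcript with this part and 6987629 for the one without it. The part is shown because it distinguishes the coding sequences of these forms, and it is chr19:6985496-6985596 of GRCm38, minus strand.
Vegfb alternative part of exon 6: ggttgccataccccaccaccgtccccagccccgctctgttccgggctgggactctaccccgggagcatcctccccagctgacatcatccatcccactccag
The transcript with this part held 56.9 ± 3.72% of the Vegfb TPM in Areg libraries and 58.05 ± 5.02% in controls. The transcript without it held 35.8 ± 6.31% in Areg libraries and 33.5 ± 5.49% in controls, and for both the ranges of the groups overlapped. In the transcript-level test the log2 fold changes were -0.41 with this part and -0.23 without it, and neither passed (edgeR adjusted p = 0.299 and 0.58).

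Vegfc, the ligand of VEGFR3 that drives growth of lymphatic vessels, lies on chromosome 8 (54077606 to 54187096). It had 31.5, 31.9, 30.9, 32.05 and 30.2 CPM in Areg libraries 1 to 5, against 28.7, 28.7, 24.2, 29.6 and 26.9 CPM in controls 1 to 5. All Areg libraries lay above all controls, as the groups did not overlap for 14.7% of all genes tested, but the difference of 0.18 on the log2 scale (SE 0.06) did not pass (edgeR adjusted p = 0.0589). Its approximate 95% interval was 0.06 to 0.30.

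Pgf, the placental growth factor gene, whose product binds VEGFR1, lies on chromosome 12 (85166635 to 85177790). It had 2.07, 1.64, 1.06, 1.35 and 0.876 CPM in Areg libraries 1 to 5, against 1.47, 1.74, 1.51, 1.67 and 1.93 CPM in controls 1 to 5. These rest on 16 to 37 counts in Areg libraries and 15 to 28 counts in controls. The ranges overlapped, and the difference of -0.25 on the log2 scale (SE 0.24, edgeR adjusted p = 0.513) had an approximate 95% interval of -0.72 to 0.22, so changes of over 1.5-fold downward were within the error at this depth.

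Within each library, Vegfa was higher relative to the other VEGF family ligands with Areg. The log2 ratio of Vegfa to the sum of Vegfb, Vegfc and Pgf, from TPM, was 2.33, 2.37, 2.4, 2.27 and 2.5 in Areg libraries 1 to 5, against 2.16, 2.18, 1.94, 1.94 and 2.22 in controls 1 to 5. Every Areg library lay above every control, by 0.29 on average (exact permutation p = 0.00794, adjusted p = 0.0212). Controls 3 and 4, which hold the most Vegfb, had the lowest ratios. Without them the difference was 0.19, and an exact test of 5 against 3 libraries gave an adjusted p of 0.0952. The ratio was not computed with the length and GC trend removed.

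Angpt2, the angiopoietin that loosens contacts between endothelial and perivascular cells when angiopoietin-1 is low, lies on chromosome 8 (18690263 to 18741562). It had 239.6, 259.6, 243, 267 and 237 CPM in Areg libraries 1 to 5, against 182, 200.9, 184, 198 and 177 CPM in controls 1 to 5. All Areg libraries lay above all controls. Angpt2 rose by 0.40 on the log2 scale (SE 0.05, edgeR adjusted p = 8.41e-05), and between 0.36 and 0.43 under the 23 alternatives. Nearly all of it was 1 coding transcript, at 117 ± 5.34 TPM in Areg libraries and 90.3 ± 5.74 TPM in controls, which also passed at transcript level (log2 fold change 0.40, edgeR adjusted p = 0.0117).

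Endothelial cells are a classical source of angiopoietin-2, and the libraries held endothelial RNA. The sum of the endothelial markers lay between 5724 and 5797 CPM in Areg libraries, within the 5671 to 6172 CPM of controls. Single markers differed in direction. Cdh5 averaged 2587 CPM in Areg libraries and 2747 CPM in controls, and Lyve1 1055 CPM in Areg libraries and 994.8 CPM in controls. Of the smooth muscle and pericyte markers 2 of 6 tested rose, beside 8.34% of all genes. These markers summed to 368 to 396.5 CPM in Areg libraries and 324.5 to 365 CPM in controls. Which cells carried the Angpt2 transcripts was not tested. Angpt2 lies within the gene Mcph1 on the opposite strand and shares 0 exonic bases with it.

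Angpt1, the TIE2 agonist that perivascular cells supply in many tissues, lies on chromosome 15 (42424723 to 42676977) and was barely expressed. It had 0.726, 0.871, 1.16, 1.64 and 1.04 CPM in Areg libraries 1 to 5, against 1.41, 1.14, 1.41, 1.49 and 1.03 CPM in controls 1 to 5. These are 13 to 23 counts in Areg libraries and 14 to 25 counts in controls. The groups overlapped, and the difference of -0.26 on the log2 scale (SE 0.25, edgeR adjusted p = 0.516) had an approximate 95% interval of -0.76 to 0.23. An antisense gene, Gm17473, overlaps 737 of its 5205 exonic bases, and the strand setting of the counting is not given in the sources used here, so even this low level is uncertain.

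The Angpt2 to Angpt1 ratio was high in both groups. Its log2 value from TPM averaged 7.74 ± 0.546 in Areg libraries and 7.2 ± 0.367 in controls, and the ranges overlapped (difference 0.54, exact permutation p = 0.111, adjusted p = 0.148). From estimated counts in place of TPM the difference was 0.72 and passed (exact permutation, adjusted p = 0.0476). The ratio carries the counting error of the low Angpt1 counts.

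Angptl4, which encodes a secreted inhibitor of lipoprotein lipase that also acts on vessel permeability, lies on chromosome 17 (33773750 to 33781830, minus strand) and showed the largest fold change of the 8 members. It had 114, 115, 119, 119.6 and 122.5 CPM in Areg libraries 1 to 5, against 72.5, 72.6, 86.2, 87.9 and 77 CPM in controls 1 to 5. Controls 3 and 4 were the highest controls and still lay well below the lowest Areg library. Angptl4 rose by 0.58 on the log2 scale (SE 0.06, edgeR adjusted p = 1.19e-05), and by 0.50 to 0.70 under the 23 alternatives.

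Both main Angptl4 transcripts rose. The annotated coding transcript had 20.2 ± 1.3 TPM in Areg libraries and 13.3 ± 1.92 TPM in controls (log2 fold change 0.63, edgeR adjusted p = 0.048). The transcript annotated as a target of nonsense-mediated decay had 72.9 ± 2.31 TPM in Areg libraries and 50.4 ± 1.68 TPM in controls (log2 fold change 0.57, edgeR adjusted p = 0.000799). Its share of the gene's TPM was 74.3 ± 1.28% in Areg libraries and 73.04 ± 4.97% in controls.

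They differ where exon 2 joins exon 3. The decay-annotated transcript lacks the first 4 bases of exon 3, which shifts the frame and leaves 462 coding bases in place of 1230. The sequences around the junction are shown because this difference shortens the frame of the more abundant transcript; they run from 30 bases before to 30 bases after it, within chr17:33780614-33780812 of GRCm38, minus strand, with the 4 bases in capitals.
Angptl4 coding transcript: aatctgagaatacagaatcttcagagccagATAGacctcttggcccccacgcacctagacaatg
Angptl4 decay-annotated transcript: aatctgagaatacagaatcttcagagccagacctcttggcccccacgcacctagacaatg
The annotated 3′ end of the decay-annotated transcript is also 1158 bases short of that of the coding one. Its annotated 5′ end lies at 33781543, and that of the coding one further out at 33781830. The division of reads between them rests on these differences and on the estimation, and the share of the decay-annotated transcript cannot be taken as a measured share of mRNA without the 4 bases.

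Angptl2, which encodes a secreted protein linked to inflammation and tissue remodelling, lies on chromosome 2 (33216069 to 33247717). It had 150, 139, 134, 145 and 142 CPM in Areg libraries 1 to 5, against 182, 173, 207.4, 194 and 182 CPM in controls 1 to 5. All Areg libraries lay below all controls. Angptl2 fell by 0.40 on the log2 scale (SE 0.05, edgeR adjusted p = 0.000139), and its log2 fold change was -0.43 to -0.29 under the 23 alternatives. Its main coding transcript held 96.02 ± 1.17% of the gene's TPM in Areg libraries and 96.01 ± 0.378% in controls and fell at transcript level (log2 fold change -0.39, edgeR adjusted p = 0.0195). The stellate cell markers also summed lower, at 12220 to 12630 CPM in Areg libraries and 12680 to 13280 CPM in controls, but not evenly. Of 15 tested, 1 rose and 6 fell. Ecm1 averaged 2946 CPM in Areg libraries and 3537 CPM in controls, whereas Dcn averaged 5259 and 5260 CPM and Nes 731.5 and 581.8 CPM. The part of stellate cell RNA in the fall of Angptl2 was not tested. The gene lies within Ralgps1 on the opposite strand and shares 0 exonic bases with it.

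The angiopoietin-like genes thus moved in opposite directions. The log2 ratio of Angptl4 to Angptl2, from TPM, was 0.37, 0.44, 0.52, 0.41 and 0.49 in Areg libraries 1 to 5, against -0.58, -0.47, -0.49, -0.35 and -0.52 in controls 1 to 5. Angptl4 exceeded Angptl2 in every Areg library and was below it in every control, with a mean difference of 0.93 (exact permutation p = 0.00794, adjusted p = 0.0212). Neither gene overlapped between the groups in TPM, so the ratio had to separate them. Its p therefore adds nothing to the calls of the single genes. Without controls 3 and 4 the difference was 0.97, and the exact permutation test of 5 against 3 libraries gave an adjusted p of 0.0714.

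**Figure D4:**
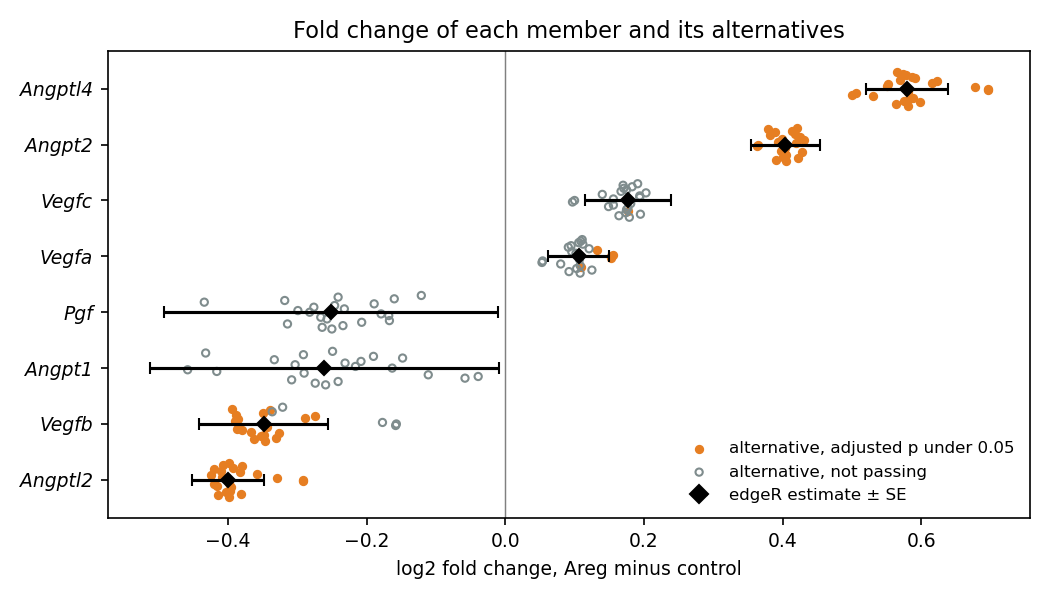
Log2 fold change (Areg minus control) of each member: diamonds give the edgeR estimate with its SE, and circles the alternative settings, filled where the adjusted p was under 0.05. Angptl4 and Angpt2 are filled on the right and Angptl2 on the left throughout, whereas Vegfb and Vegfa change between filled and open.

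RefSeq promoter windows (GRCm38.p6, reaching from before to shortly after each annotated start) were at hand for 5 of the 8 members, 7 windows in all. These members were Vegfa, Vegfb, Vegfc, Pgf and Angptl2. No window was at hand for Angpt1, Angpt2 or Angptl4, so neither member that rose was searched for motifs. They are given for Angptl2 and Vegfb, the members that fell, with the GC box GGGCGG in capitals on either strand. The windows are chr2:33215711-33216010 (plus strand) and chr19:6987602-6987901 (minus strand).
Angptl2: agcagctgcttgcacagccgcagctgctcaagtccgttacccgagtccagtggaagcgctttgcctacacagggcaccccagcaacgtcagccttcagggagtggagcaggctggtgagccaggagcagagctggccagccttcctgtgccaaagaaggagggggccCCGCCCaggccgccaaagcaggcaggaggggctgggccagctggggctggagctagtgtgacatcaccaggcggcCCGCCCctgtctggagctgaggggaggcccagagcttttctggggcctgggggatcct
Vegfb: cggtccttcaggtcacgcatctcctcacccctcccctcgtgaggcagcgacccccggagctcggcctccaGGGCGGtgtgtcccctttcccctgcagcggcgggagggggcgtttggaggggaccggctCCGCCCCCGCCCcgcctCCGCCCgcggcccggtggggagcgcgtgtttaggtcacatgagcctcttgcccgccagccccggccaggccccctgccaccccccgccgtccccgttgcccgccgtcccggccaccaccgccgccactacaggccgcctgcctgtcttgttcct
Angptl2 held 2 such boxes and Vegfb 4, and 35.7% of 32851 promoter windows held at least 1. The AP-1 motif TGANTCA (7.81% of windows) and the ACGTG form of the hypoxia response element core (19.6% of windows), each searched on both strands, were in neither window. The GCGTG form of that core was not searched for, and the Vegfb window printed above holds it. Of the 7 windows of members 1 held ACGTG, the one for an internal start of Vegfa, and none held TGANTCA.

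Receptors for these ligands were expressed in the preparation. All 7 listed were tested, of which 0 rose, 2 fell and 5 did not pass, beside 8.34% higher and 8.32% lower among all genes. Their median log2 fold change was -0.07. Tie1, an orphan receptor that modulates TIE2, had 109 ± 5.85 CPM in Areg libraries and 131 ± 10.5 CPM in controls (log2 fold change -0.26, edgeR adjusted p = 0.0058). With the length and GC trend removed its log2 fold change was -0.06 and did not pass (edgeR adjusted p = 0.311). Nrp1, the neuropilin-1 gene, had 106.5 ± 4.06 CPM in Areg libraries and 120 ± 4.58 CPM in controls (log2 fold change -0.18, edgeR adjusted p = 0.0157), a call lost under 4 of 23 alternatives. Kdr, which encodes VEGFR2, had 66.8 ± 2.56 CPM in Areg libraries and 59.9 ± 4.29 CPM in controls and did not pass (edgeR adjusted p = 0.0744). It passed as higher under 3 of 23 alternatives. With the length and GC trend removed its log2 fold change was 0.19 (edgeR adjusted p = 0.012). Flt4, which encodes VEGFR3, had 285 ± 7.82 CPM in Areg libraries and 311 ± 28.2 CPM in controls and did not pass (edgeR adjusted p = 0.147). Its log2 fold change of -0.12 turned to 0.08 with the length and GC trend removed. Kdr, Tek and Tie1 are themselves endothelial markers, and the part of endothelial RNA in these values was not tested.

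Of 10 further genes, ligands of the same families and partners of ANGPTL4, 6 were tested. Among them 1 was higher, 2 were lower and 3 did not pass, beside 8.34% higher and 8.32% lower among all genes. Their median log2 fold change was -0.01. Lpl, the lipoprotein lipase that ANGPTL4 inhibits, had 401 ± 9.62 CPM in Areg libraries and 357 ± 22.7 CPM in controls (log2 fold change 0.17, edgeR adjusted p = 0.0258), a call lost under 8 of 23 alternatives. Vegfd, another VEGFR3 ligand in this family, had 4.74 ± 1 CPM in Areg libraries and 6.65 ± 0.757 CPM in controls (log2 fold change -0.50, edgeR adjusted p = 0.0246), lost under 7 of 23. Angptl6 had 39.7 ± 3.38 CPM in Areg libraries and 47.7 ± 3.2 CPM in controls (log2 fold change -0.26, edgeR adjusted p = 0.0132). With the length and GC trend removed its log2 fold change was -0.06 and did not pass (edgeR adjusted p = 0.578).

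Other secreted regulators of angiogenesis included genes with a rise close to that of Angptl4, and Ccn2 with the largest rise of the list. Ccn2 had 366 ± 62.5 CPM in Areg libraries and 182 ± 29.7 CPM in controls (log2 fold change 1.00, edgeR adjusted p = 0.00147). Of the 20 such regulators tested, 5 were called higher, 2 lower and 13 neither, beside 8.34% higher and 8.32% lower among all genes. Their median log2 fold change was 0.03. Fgf2, the basic fibroblast growth factor gene, had 105 ± 4.72 CPM in Areg libraries and 72.9 ± 5.69 CPM in controls (log2 fold change 0.53, edgeR adjusted p = 2.62e-05), a call lost under 2 of 23 alternatives. Thbs1, which encodes the angiogenesis inhibitor thrombospondin-1, had a log2 fold change of 0.59, and Ccn1, which encodes a matricellular activator of integrins, one of 0.68. Sema3a, a semaphorin gene whose product binds neuropilin-1, had 41.5 ± 2.4 CPM in Areg libraries and 29.3 ± 3.21 CPM in controls (log2 fold change 0.50, edgeR adjusted p = 0.000339). Genes that promote and genes that inhibit vessel growth were thus among those that rose.

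**Figure D5:**
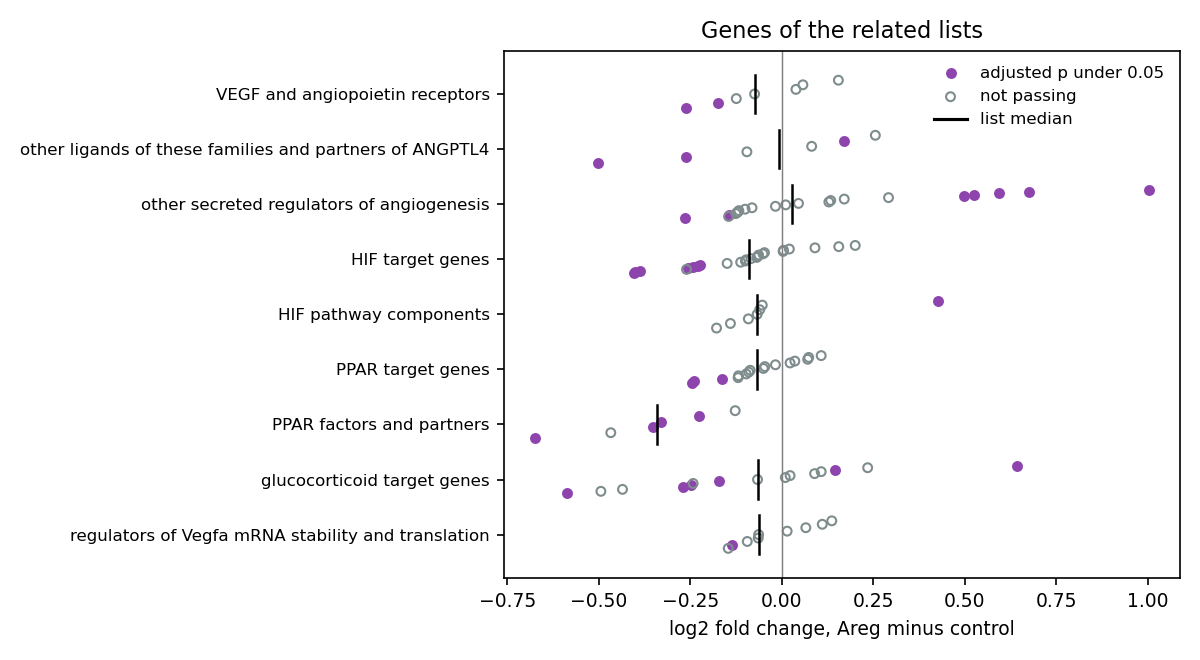
Log2 fold change (Areg minus control) of each tested gene in the related lists; filled circles passed at an adjusted p of 0.05 and black lines are list medians. In the list of HIF target genes every filled circle lies left of 0, while Hif1a is the filled circle on the right among the HIF pathway components.

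Vegfa and Angptl4 are textbook target genes of hypoxia-inducible factors (HIF), and Angptl4 also of PPAR receptors, so other listed targets of these factors are given here. Of 24 listed HIF target genes, beside 8.34% higher and 8.32% lower among all genes, 0 were called higher, 7 lower and 17 neither (median log2 fold change -0.09), and the number called was 3 with a transcript length offset and 12 with the replicate block and the trend removed. Bnip3, a mitophagy gene, had 25.9 ± 0.95 CPM in Areg libraries and 34.2 ± 4.59 CPM in controls (log2 fold change -0.40, edgeR adjusted p = 0.00257). Pfkfb4, Hk1 and P4ha2, for glycolysis and collagen hydroxylation, had log2 fold changes of -0.39, -0.26 and -0.40. Pfkfb4 and P4ha2 each lost their call under 3 of 23 alternatives, and Hk1 was at -0.11 and did not pass with the length and GC trend removed (edgeR adjusted p = 0.119). Of 7 HIF pathway components 1 rose and 0 fell. That was Hif1a, the oxygen-regulated subunit, at 655 ± 34.3 CPM in Areg libraries and 486.5 ± 46 CPM in controls (log2 fold change 0.43, edgeR adjusted p = 0.000363), whereas Epas1, the HIF-2 alpha gene, was at -0.14 and missed the threshold (edgeR adjusted p = 0.0567).

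For the 16 listed PPAR target genes the counts were 0 higher, 3 lower and 13 neither (median log2 fold change -0.07), beside 8.34% higher and 8.32% lower among all genes. Plin2, a lipid droplet coat gene, had 436 ± 29.9 CPM in Areg libraries and 515 ± 24.1 CPM in controls (log2 fold change -0.24, edgeR adjusted p = 0.00599). Cpt1a, the carnitine palmitoyltransferase gene, had a log2 fold change of -0.25 (edgeR adjusted p = 0.00459), a call lost under 3 of 23 alternatives, and Ucp2 one of -0.16 that was lost under 16. Of 6 PPAR factors and partners 0 rose, 4 fell and 2 did not pass, beside the same shares among all genes. Ppard, the PPAR delta gene, had 194.5 ± 4.4 CPM in Areg libraries and 244.5 ± 25.3 CPM in controls (log2 fold change -0.33, edgeR adjusted p = 0.00149). Rxra, its partner, had a log2 fold change of -0.35 (edgeR adjusted p = 0.000169), a call lost under 3 of 23 alternatives. With the length and GC trend removed Ppard was at -0.11 and Rxra at -0.16. The other factors called lower, Ppargc1b and Rxrb, lost their calls under 9 and 14 of 23 alternatives. Only 1 of the factors passed with a transcript length offset, and 2 passed without controls 3 and 4.

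The genes whose level followed each called member most closely over the 10 libraries were sought among genes averaging 1 CPM or more. Libraries share a group, so these correlations of log2 CPM hold the group difference itself and are a description. Angptl4 was most like Dusp5, a nuclear ERK phosphatase gene (Pearson r = 0.986), the cytokine gene Il11 (0.98) and Tnfrsf12a, the TWEAK receptor gene (0.978). Angpt2 was most like Glipr2 (0.984), the serpin gene Serpinb2 (0.973) and the small GTPase gene Rras2 (0.971). Angptl2 was most like the focal adhesion gene Tns2 (0.992), the glycine transporter gene Slc6a9 (0.988) and the glycosyltransferase gene Mgat4b (0.985). Vegfb was most like Tsku (0.98), Gas2l1 (0.979) and Trim28 (0.974). Gas2l1 did not pass (log2 fold change -0.18, edgeR adjusted p = 0.0951). Trim28 passed (log2 fold change -0.17, edgeR adjusted p = 0.0457), but its call was lost under 15 of 23 alternatives. Without controls 3 and 4 it was at -0.07.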

How the data were processed

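Poly-A RNA of 10 libraries was sequenced from TruSeq libraries, per the labels' protocols. Per the file headers, each deposited file gives, for every transcript, an estimated count that need not be whole and a TPM value, which is scaled for effective length and to one total per library. Named in the submitters' processing notes, without role or order, are GRCm38.p6, kallisto 0.44.0, DESeq2 and bcl2fastq 2.19. The strand setting is not given in the sources used here.

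Of 118489 transcripts 116816 matched GENCODE M21 (GRCm38). Estimated counts were summed per gene, rounded and tested with edgeR 4.0.16 in R 4.3.3 (quasi-likelihood, robust, TMM, filterByExpr with minimum count 10, Benjamini-Hochberg over 13362 genes, threshold 0.05). Approximate intervals come from the SE. The same test was run on 36269 transcripts, and shares and ratios used two-sided exact permutation tests over all splits into 5 and 5 libraries. The scripts were tested on simulated data. No library looked like a second copy of another in its group, since chi-square over degrees of freedom was 3.77 to 49.7.

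The members and gene lists were chosen with earlier results of these data known, so counts over them are descriptions. Text names all members, up to 4 genes per list by smallest p, and the 3 genes most like each called member (predicted genes and pseudogenes left out). Ccn2 is named in addition, for its fold change. Alternatives were other scaling factors, filters, DESeq2 1.42.0, limma-voom and limma-trend (limma 3.58.1) on log2(TPM + 1) and log2(TPM + 0.1), a length offset, a length and GC trend, a replicate block and libraries left out.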

Additional observations from a re-analysis of the deposited data

How the results depend on the processing

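The rises of Angptl4 and Angpt2 and the fall of Angptl2 held under all 23 alternatives. The number of genes called was 2226, 50.04% of them higher, against 1161 with a transcript length offset, 840 on log2(TPM + 1) and 845 on log2(TPM + 0.1), where 37.6 and 37.4% were higher, and 61.3% were higher with the length and GC trend removed. With 1 library left out it was 1364 (without Areg replicate 2) to 2314, and 3 to 5 members were called. Vegfa passed with DESeq2 (log2 fold change 0.109), with the trend removed (0.152), with the replicate block and the trend removed (0.152) and without controls 3 and 4 (0.155), and its values with 1 library left out were 0.091 to 0.133. Vegfb was lost with the trend removed (-0.158), with the replicate block and the trend removed (-0.157), without controls 3 and 4 (-0.177) and without Areg replicate 2 or 5, with a range of -0.394 to -0.275 over single libraries left out. Vegfc passed with DESeq2 (0.177). The cause of these changes was not tested.

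The Vegfa exon 6 share without exon 7 was lost with estimated counts (1.07 percentage points), with coding transcripts only (5.13), without controls 3 and 4 (4.01) and in 5 of the 10 settings with 1 library left out (range over all 10: 3.69 to 6.36), and its transcript did not pass at transcript level (log2 fold change 0.562). The share with exons 6 and 7 reversed with coding transcripts only (-0.467), without controls 3 and 4 (-0.353) and without control replicate 3 (-0.112, range to 0.78). The share with exon 7 alone was -6.05 with coding transcripts only and reversed without controls 3 and 4 (2.15) and without control replicate 3 (1.17, range from -1.59), and its transcript had a log2 fold change of 0.061. Without controls 3 and 4 the share without a coding sequence (-6.65), the Vegfa ratio (0.189) and the Angptl4 to Angptl2 ratio (0.968) kept their direction and missed the threshold, in a design of 5 against 3 libraries. That design has fewer splits, so its smallest possible p is larger. A miss there does not by itself show that a result rests on these controls. The Angpt2 to Angpt1 ratio passed from estimated counts (0.717).

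Deviations of same-numbered libraries from their group means were at most weakly correlated (r = -0.032 to 0.123). Libraries numbered 2 and 4 correlated best with their own number in both directions, and those numbered 1, 3 and 5 in neither. The labels state no pairing, and these values cannot decide whether the numbers pair the libraries. With the replicate block 2357 genes were called. A paired exact sign-flip permutation test of 5 pairs cannot go below p = 0.0625, so the exon 6 share (5.37), the share without a coding sequence (-7.29), the Vegfa ratio (0.288) and the Angptl4 to Angptl2 ratio (0.927) missed the threshold there.

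Of 1104 values of 48 other named genes, Ccn2 not among them, 959 kept their call, 124 lost it, 11 gained it and 10 reversed. The reversals came with the trend removed, without and with the replicate block: Flt4 (0.079 and 0.08), Egln2 (0.101 in both), Hif1an (0.015 in both), Khsrp (0.035 and 0.034) and Gas2l1 (0.051 in both), none of which passed. Depth limits Pgf and Angpt1.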

Other observations

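Angptl4 is also a known glucocorticoid target, and 15 other such genes were listed. Of these 2 were called higher, 4 lower and 9 neither, beside 8.34% higher and 8.32% lower among all genes, with a median log2 fold change of -0.07, and -0.01 for all genes. Errfi1, which is also a feedback inhibitor of the EGF receptor, had 298 ± 15.4 CPM in Areg libraries and 191 ± 16.2 CPM in controls (log2 fold change 0.64, edgeR adjusted p = 3.26e-06). Per1, a clock gene, had 114 ± 2.22 CPM in Areg libraries and 135 ± 15.3 CPM in controls (log2 fold change -0.25, edgeR adjusted p = 0.0133), and with the length and GC trend removed it was at -0.02 and did not pass (edgeR adjusted p = 0.8). Zbtb16 and Klf9 had log2 fold changes of -0.59 and -0.17, and their calls were lost under 9 and 10 of 23 alternatives. With a transcript length offset 2 of the 15 genes were called.

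Of 9 regulators of Vegfa mRNA stability and translation, 0 rose, 1 fell and 8 did not pass, beside 8.34% higher and 8.32% lower among all genes. The one that fell was Hnrnpl, an RNA-binding protein gene (log2 fold change -0.14, edgeR adjusted p = 0.0317), and its call was lost under 9 of 23 alternatives. Elavl1, the HuR gene, had 115 ± 3.61 CPM in Areg libraries and 106 ± 6.54 CPM in controls and did not pass (edgeR adjusted p = 0.138).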
